A study of Mus musculus with 16 samples.

Results

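RNA-seq of whole pancreas from obese Lep(ob/ob) mice that drank a cholecystokinin (CCK) receptor antagonist (CCKRi) was compared with that of lean wild-type (WT) mice, to ask which transcripts that differ in obesity still differed from WT under treatment and which went past the WT level. The 4 treated mice (mice 69 and 72 on proglumide at 0.1 mg/ml, mice 74 and 76 on lorglumide at 0.05 mg/ml) and the 5 WT mice were 9 of the 16 mice of the series. The 7 untreated Lep(ob/ob) mice (OB) were kept in the fit so that the batch given in the labels could be a covariate. All 13660 of 24411 genes that passed a low-count filter were tested. All mice were C57BL6/J males collected at 12 weeks of age, and the antagonists were given in drinking water for 6 weeks from 6 weeks of age. Lep(ob/ob) mice lack functional leptin in every tissue, so that any effect of treatment was measured on that background only, and no lean mouse received an antagonist. By the labels, WT animals came from an in-house colony and Lep(ob/ob) animals from a vendor, whereas the methods of the study have both strains purchased. Batch RQ14163 held 3 WT and 4 OB mice, and batch RQ15502 held 2 WT mice (58 and 59), 3 OB mice and all 4 treated mice.

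CCK is a peptide hormone of gut endocrine cells that makes acinar cells release digestive enzymes, and in obese mice islet β cells also express it. Proglumide and lorglumide are glutamic acid derivatives that block CCK receptors. In the obese, insulin-resistant state the β cells that make insulin and amylin expand in number, and acinar cells, which fill most of the gland, change their output of enzymes and of Reg proteins, small secreted C-type lectins. A whole-pancreas library therefore sums acinar, islet, duct, fat and immune cells, and fewer cells of a type and less RNA per cell cannot be told apart in it.

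The treated mice weighed 54.8 ± 2.22 g (SD, n = 4) against 27.7 ± 3.22 g in WT (n = 5), a difference of 27.1 g (two-sided exact permutation test, p = 0.0159), and 51.0 ± 1.98 g in OB (n = 7; exact p = 0.0303 against treated). Lep, which encodes leptin, was first checked in every mouse. Its levels, in CPM (counts scaled to a common library size) after trimmed mean of M-values (TMM) scaling, were 0.986, 3.68, 2.38, 1.28 and 2.80 CPM in WT mice 5489, 5492, 5494, 58 and 59, the order used for WT values from here on, and 502, 123, 103 and 52.8 CPM in treated mice 69, 72, 74 and 76, the order used for treated values. In OB it lay between 14.2 and 477 CPM, with a median of 77.5 CPM. Every obese mouse lay above every WT mouse. The ob mutation, in Lep at chr6:29060220-29073877 (GRCm38), leaves a transcript that is still made, so the gene's reads mark obese fat and not functional leptin. Lep is an adipocyte gene, and the summed adipocyte markers were highest in the same mice, 69 (1084 CPM) and OB mouse 463 (1415 CPM), against 57.6 to 187 CPM in WT and 190 to 326 CPM in the other treated mice. In a fit without both mice the log2 difference of Lep from WT was 5.01 (edgeR adjusted p = 0.000475), and with all mice 5.50. The part of fat content in results on adipocyte-expressed genes was not tested. Acinar markers were the bulk of marker RNA in all mice, with a summed level of 102500 to 365600 CPM in WT and 49950 to 151200 CPM in treated mice; the WT mice of batch RQ15502, at 102500 and 179100 CPM, were the lowest of their group. Libraries held 9.87 to 12.5 M counts in treated mice and 9.87 to 34.5 M over all mice. Per-mouse values below are CPM, while fold changes are log2 differences from edgeR's quasi-likelihood fit with batch, so that a fitted difference can depart from the raw means where the batches differ.

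Treated mice differed from WT in 761 genes at an adjusted p under 0.05 (edgeR, Benjamini-Hochberg), 5.57% of those tested, of which 576 were higher (4.22%) and 185 lower (1.35%). Most were features of untreated obesity: 598 of the 761 also differed between OB and WT in the same direction, where 1239 genes (9.07%) were called. These 598 remaining features comprised 489 higher and 109 lower genes. The median log2 difference of the higher genes was 2.42 in treated mice and 1.91 in OB, and that of the lower genes was -1.09 in treated mice and -0.84 in OB, beside a median of -0.02 over all genes tested. Both comparisons share the WT mice, so the 598 is the count that the definition gives and not an independent overlap. Another 7 genes went past WT, meaning that treated mice differed from WT in the direction opposite to the OB estimate; none of the 7 was called between OB and WT and 1 had an unadjusted p under 0.05 there, so that OB mice were not shown to differ from WT in them. A further 156 genes, 86 higher and 70 lower, were called in treated mice only, with the OB estimate on the same side. Finally, 641 genes were called in OB but not in treated mice. That alone does not show a difference between treated and OB mice. Where the treated estimate of these genes was above WT, the median was 0.64 in treated mice and 0.99 in OB. Where it was below, the medians were -0.39 and -0.68. Each class was defined by its calls, so the order of treated and OB medians is not read as an effect of treatment.

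**Figure D1:**
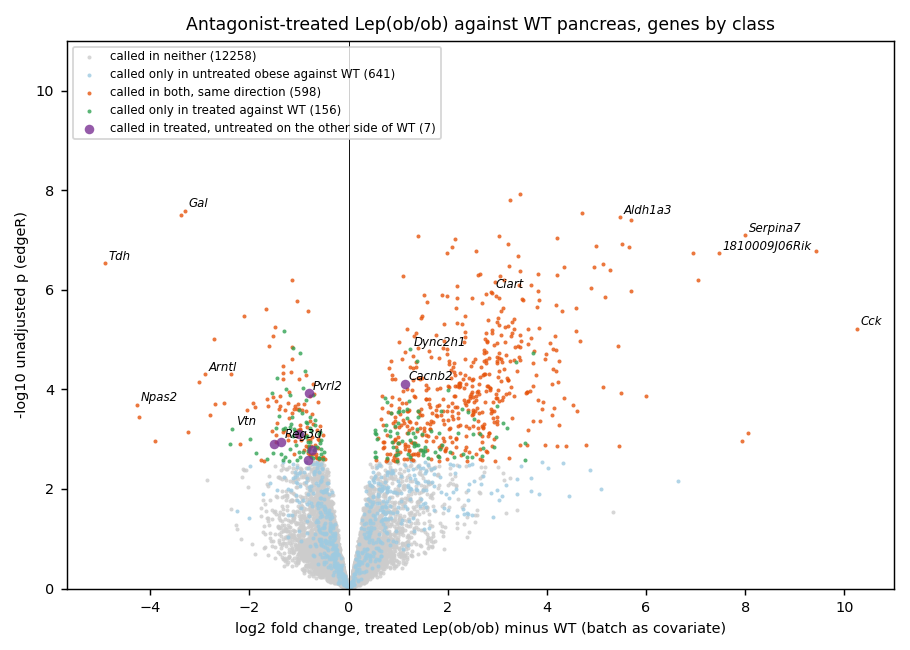
Each point is a tested gene, with the log2 fold change of treated Lep(ob/ob) against WT on the horizontal axis and -log10 of the unadjusted edgeR p on the vertical axis; colours give the class of the gene and the legend the number in each. The 598 genes called in both comparisons lie mostly to the right of 0, and of the 7 past WT only Cacnb2 does.

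Between treated and untreated obese mice themselves, edgeR with batch called 8 genes (0.0586%). This number depended on the fit: DESeq2 with batch called 92, edgeR without batch 570 and DESeq2 without batch 2518, and 1951 genes (14.3%) had an unadjusted p under 0.05 by edgeR with batch. None of the 598 remaining features was among the 8, DESeq2 with batch called 1 of them, and 85 of the 598 had an unadjusted p under 0.05, a share close to that of all genes. For 403 of the 598, the 4 treated mice did not overlap the 5 WT mice, a separation seen in 1569 of all genes tested (11.5%), and for 486 they did not overlap the 2 WT mice of their own batch, as in 21.6% of all genes. The 598 were called with these same mice, so nothing is read from these shares. In a fit on batch RQ15502 alone, 593 of the 598 could be tested, all 593 kept their direction and 560 had an unadjusted p under 0.05, beside 9.96% of all genes in that fit, but only 13 genes passed at an adjusted p under 0.05. Without treated mouse 74 the call count was 516, and without OB mouse 463 it was 968. Without batch as a covariate 1428 genes were called, 695 higher and 733 lower. A fit of the treated and WT mice alone called 2.18% of the genes it tested. With treated mouse 69 and OB mouse 463, the mice highest in adipocyte markers, both left out, an alternative chosen after the data were seen, 1014 genes were called, of which 772 remained from obesity, 12 were past WT and 230 were called in treated mice only.

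Islet hormone genes were prominent among the remaining features. Of 20 β cell hormone and granule genes, 15 were higher in treated mice than in WT and none was lower, beside 4.22% and 1.35% of all genes. Their median log2 difference was 2.40 (1.97 in OB). Iapp (chr6:142298423-142303961), which encodes amylin, the peptide that β cells release with insulin, measured 121, 121, 140.6, 287 and 276 CPM in WT and 627, 2146, 3490 and 3363 CPM in treated mice, a log2 difference of 3.68 ± 0.59 (SE; adjusted p = 0.00115). The treated mice lay above every WT mouse, and above OB mice in part: the 3 OB mice of their own batch measured 491, 442 and 1698 CPM and the other 4 OB mice 1441 to 1882 CPM. Ins2, an insulin gene, measured 654, 688, 719, 650 and 481 CPM in WT and 518, 2361, 3033 and 6476 CPM in treated mice (log2 difference 2.85 ± 0.56, adjusted p = 0.00501). Here mouse 69 lay within the WT range and the other treated mice above it. Ins1, the second mouse insulin gene, measured 218, 922, 1573 and 2970 CPM against 272 to 387 CPM in WT (2.51 ± 0.59, adjusted p = 0.0158), with mouse 69 below every WT mouse and the other treated mice above, and lost its call without mouse 76 (adjusted p = 0.061). The granule proteins Chgb, Scg2 and Scg5, which help to pack and process hormones, rose by 3.84, 3.62 and 3.46 on the log2 scale, each without overlap with WT. Most called members did overlap WT. In 6 of the 20 genes all treated mice lay above all WT mice, beside 11.5% of all genes without overlap in either direction. For the called genes Chga, Pcsk1 and Pcsk2, mouse 69 lay below every WT mouse and the other treated mice above.

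Of 13 transcription factors of the β cell lineage, 6 were higher and none lower (median 1.61), beside 4.22% and 1.35% of all genes. Rfx6, which islet progenitors need to form endocrine cells, was 1.21, 0.669, 1.19, 2.84 and 2.62 CPM in WT and 3.5, 13.2, 22.7 and 14.9 CPM in treated mice (3.11 ± 0.63, adjusted p = 0.00641), again with mouse 69 nearest to WT. Insm1, Pax6 and St18 rose by 2.74, 2.59 and 2.58. Pdx1 (0.84 ± 0.38, adjusted p = 0.267) and Mafa (0.09 ± 0.54, adjusted p = 0.959), both activators of the insulin gene, did not pass the test, and neither did the glucose transporter Slc2a2 (0.57 ± 0.41). The summed levels of 5 β cell markers were 1032 to 1328 CPM in WT and 1366, 5436, 8106 and 12820 CPM in treated mice, so that the treated mice ranged from just above WT to far above it.

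The secretory machinery shared with neurons moved the same way: 11 of 16 exocytosis genes were higher and none lower (median 2.19), beside 4.22% and 1.35% of all genes. Snap25, a component of the fusion complex, was 0.683 to 2.19 CPM in WT and 3.90, 13.8, 25.3 and 22.9 CPM in treated mice (3.62 ± 0.56, adjusted p = 0.000917). Syt5 and Syt13, of the synaptotagmin family, and Unc13a, which primes vesicles, rose by 3.98, 2.99 and 3.12. Of 7 alpha, delta and PP cell genes, 3 were higher, beside 4.22% of all genes. They were Ppy (pancreatic polypeptide, 3.41 ± 0.62), Pyy (2.81 ± 0.55) and Ttr (2.38 ± 0.46). Glucagon (Gcg; 1.65 ± 0.54, adjusted p = 0.0942) and somatostatin (Sst; 0.86 ± 0.56, adjusted p = 0.498) did not pass the test. Without treated mouse 69, whose β cell marker sum was the lowest of the group, Gcg and Sst passed as well (edgeR adjusted p = 0.00808 and 0.0243). Both also passed with lorglumide mice alone and without mice 69 and 463 together, and Gcg without WT mouse 58 and in DESeq2 with or without batch.

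The counts of these islet lists depended on single mice. Without mouse 76 the β cell granule count was 9 of 20, and without mouse 69 the transcription factor count was 10 of 13 and the count of alpha, delta and PP cell genes 5 of 7. In batch RQ15502 alone none of the genes in these 4 lists was called by edgeR although their medians stayed at 1.90, 1.24, 1.80 and 1.32 for the granule, transcription factor, exocytosis and alpha, delta and PP lists. Fits of the treated and WT mice alone called 4, 0, 3 and 0. With only the proglumide mice as the treated group, 5 of 20 granule genes passed and 239 genes in all; with only the lorglumide mice 17 of 20 and 760 in all. The antagonists were given at different doses with 2 mice each, and these counts stand side by side without a comparison.

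**Figure D2:**
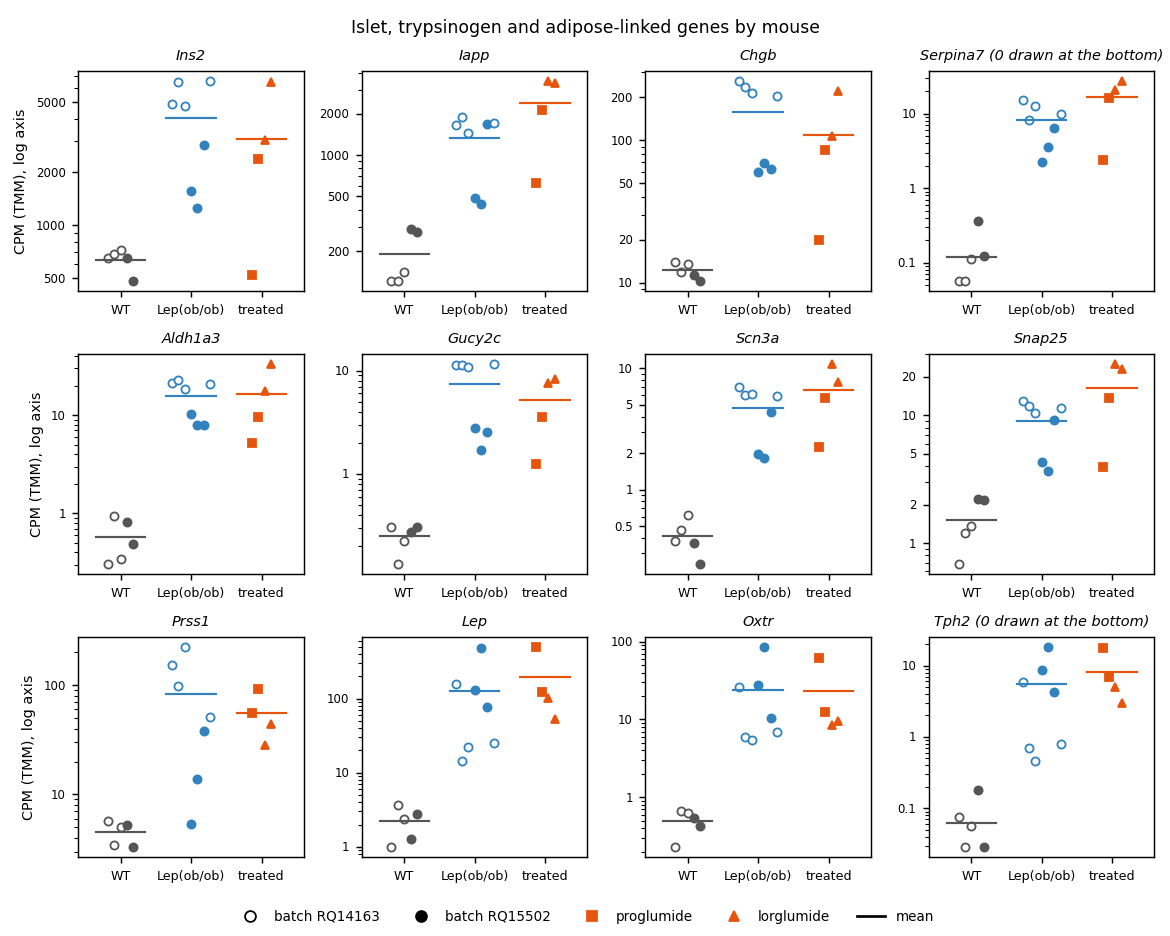
CPM on a log axis in each mouse, 1 panel a gene, for WT, untreated Lep(ob/ob) and treated mice; open points are batch RQ14163, filled points batch RQ15502, squares proglumide, triangles lorglumide and lines the group means. Treated mouse 69, a square, is the lowest treated mouse in the islet genes Ins2 to Snap25 and the highest in Lep, Oxtr and Tph2.

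A list of 13 genes linked to lactogen and serotonin signalling and to stress in β cells was examined. Tph1, Htr2b, Htr1d and Gast were not among its 9 tested genes. Of the 9 tested, 7 were higher and none lower, beside 4.22% and 1.35% of all genes. The median log2 difference was 4.38 in treated mice and 4.72 in OB. This list was chosen with earlier results of these data known, so nothing is read from its count. Serpina7 (chrX:139079257-139085236), which encodes thyroxine-binding globulin, had the largest rise of the genes that met the naming rule. It was 0, 0, 0.113, 0.366 and 0.122 CPM in WT and 2.38, 16.2, 21.1 and 27.7 CPM in treated mice (8.00 ± 0.88, adjusted p = 0.000108). Aldh1a3 (chr7:66390890-66427517), a retinaldehyde dehydrogenase known as a marker of failing β cells, was 0.303, 0.936, 0.340, 0.823 and 0.487 CPM in WT and 5.25, 9.66, 17.6 and 33.5 CPM in treated mice (5.47 ± 0.57, adjusted p = 7.65e-05). The naming rule required that treated and WT mice did not overlap in either gene. The OB mice, at 2.26 to 15.4 CPM and 7.92 to 22.8 CPM, overlapped the treated mice in both. Tph2, a rate-limiting enzyme of serotonin synthesis, and Oxtr, the oxytocin receptor, rose by 6.01 ± 1.22 and 4.61 ± 1.0. Both were highest in mouse 69, in which Serpina7 and Aldh1a3 were lowest: Oxtr was 61.8, 12.7, 8.57 and 9.57 CPM and Tph2 17.5, 6.87, 5.04 and 3.03 CPM, and among OB mice both were highest in mouse 463. Slc5a7, a choline transporter, was also highest in these mice, with 20.1, 5.12, 4.98 and 4.11 CPM in treated mice and 36.7 CPM in OB mouse 463 (4.38 ± 1.14, edgeR adjusted p = 0.0304), and lost its call in 6 of the 16 fits that left out a mouse. Those are the mice with the highest adipocyte marker sums. Without mice 69 and 463, the difference from WT was 3.98 for Oxtr (edgeR adjusted p = 0.000586) and 5.55 for Tph2 (adjusted p = 0.00281), while the 3 treated mice left had adipocyte marker sums above every WT mouse.

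Cck itself, at chr9:121489824-121495694, had 0 reads in every WT mouse and 7, 18, 8 and 18 reads in treated mice 69, 72, 74 and 76. Taken over the groups it was at least 17.1-fold higher in treated mice, against a floor of 3 reads over the WT group. In OB mice it had 10 to 33 reads in batch RQ14163. The OB mice of the treated mice's own batch, 461, 463 and 464, had 2, 0 and 0 reads, fewer than any treated mouse. The reads are too few for an order among the obese mice. Its acinar receptor Cckar measured 653, 492, 504, 388 and 234 CPM in WT and 128, 183, 172 and 259 CPM in treated mice, a log2 difference of -0.85 ± 0.32 that did not pass the test (adjusted p = 0.169). Mouse 76 lay above WT mouse 59. Cckar was called lower without batch as a covariate, in edgeR and in DESeq2. Cckbr, the other CCK receptor, was at 0 to 2 reads in treated mice and 3 to 9 in WT and was not tested. The neuropeptide galanin (Gal, chr19:3409915-3414544), which is known to inhibit insulin secretion, was the only member of 12 tested secretagogue genes and receptors that was called lower, and Cck the only one called higher. Gal measured 135, 103, 167, 119 and 85.3 CPM in WT and 4.53, 10.5, 7.72 and 11.9 CPM in treated mice (-3.30 ± 0.34, adjusted p = 7.65e-05), against 7.97 to 31.3 CPM in OB.

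Tdh (chr14:63492347-63509092), L-threonine dehydrogenase, had the largest fall of the lower remaining features. It was 9.03, 11.2, 15.8, 23.3 and 13.0 CPM in WT and 0.359, 0.581, 0.304 and 0.337 CPM in treated mice (-4.92 ± 0.60, adjusted p = 0.000167), and 0.272 to 3.72 CPM in OB. Cfd, adipsin, a fat-derived complement factor that is known to be low in obese mice, fell by 4.23 ± 0.95 (17.4 to 75.3 CPM in WT, 1.52 to 7.49 CPM in treated mice), while of the other 13 adipocyte genes tested Lep was higher and 12 did not pass the test. Klk1b11, a tissue kallikrein, fell by 3.37 ± 0.35, from 10.5 to 37.5 CPM in WT to 2.11 to 2.48 CPM in treated mice. Slc16a5 and Smim24 fell by 2.12 ± 0.31 and 2.19 ± 0.56, the latter not without treated mouse 69 or 74. Of the 50-base stretches of Klk1b11 and Tdh transcripts, 12.8% and 10.2% also occur in other genes, so a small part of their counts may be shared.

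The largest rises held a pair of trypsinogen-like genes that are near copies of each other. 1810009J06Rik measured 0.227 to 1.55 CPM in WT and 66.3, 92.7, 31.6 and 47.0 CPM in treated mice (7.48 ± 0.88, adjusted p = 0.000116), and Gm2663 rose by 6.94 ± 0.81; 81.5% and 83.5% of their 50-base stretches are shared between the pair, so their counts cannot be assigned to either with certainty. Prss1, a trypsinogen, rose by 4.60 ± 0.71, from 3.29 to 5.76 CPM in WT to 56.0, 92.3, 28.3 and 44.0 CPM in treated mice, with 54.9% of its stretches shared with Gm5771, Gm10334 and Prss3. The other rises by the same rule were Pdyn, prodynorphin (5.28 ± 0.66), Gucy2c, the guanylin receptor (5.65 ± 0.65), the sodium channel Scn3a (4.71 ± 0.48) and Dapl1 (5.12 ± 0.62). By the naming rule these 4 genes could not overlap between treated and WT mice, so nothing is read from that.

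**Figure D3:**
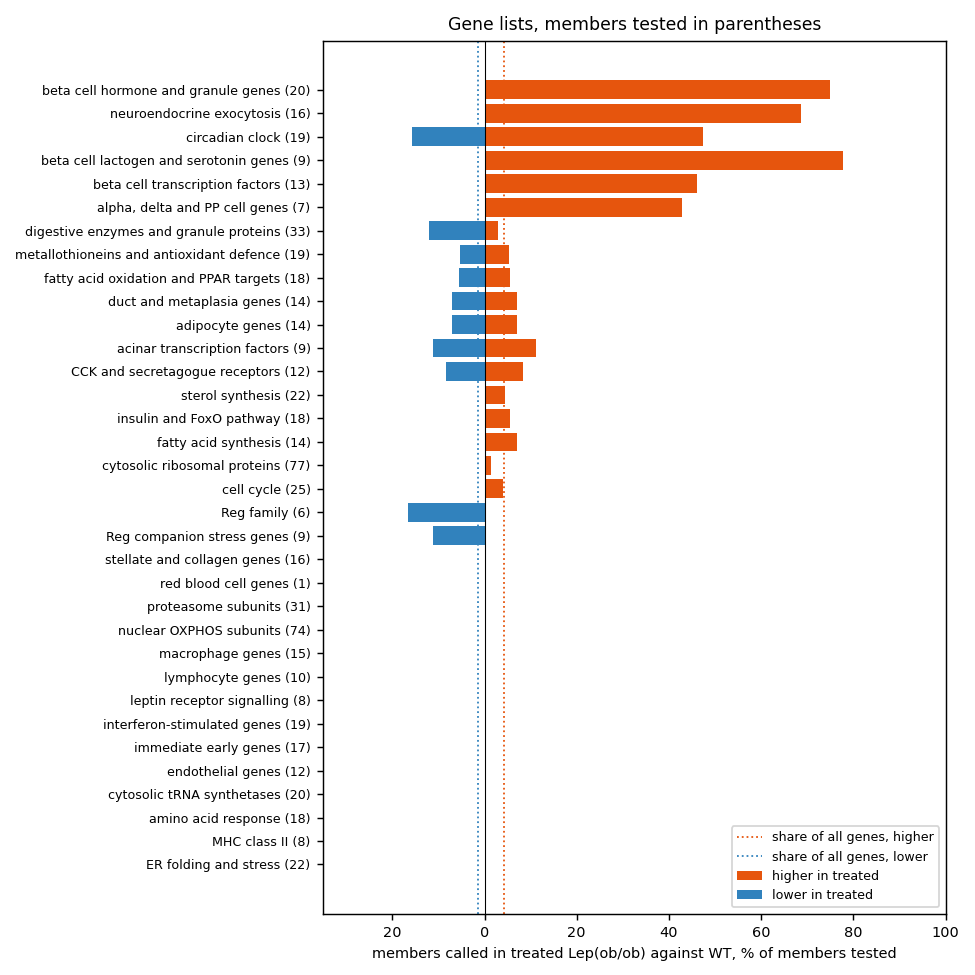
Bars give, for each of 34 gene lists with the number of members tested in parentheses, the percent of members called higher (right, orange) or lower (left, blue) in treated Lep(ob/ob) mice against WT; dotted lines mark the 4.22% and 1.35% of all genes. The islet, exocytosis and clock lists extend furthest to the right, and 14 lists have no bar.

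Clock genes formed the other group in which most members remained different. Of 19 tested, 9 were higher and 3 lower in treated mice, beside 4.22% and 1.35% of all genes. In OB 10 were higher and 4 lower, beside 9.07% of all genes called in either direction. In the daily clock, ARNTL and its partners CLOCK or NPAS2 activate genes through the E-box, among them the Per and Cry repressors, and the factors DBP, TEF and HLF bind the D-box, where NFIL3 opposes them. The 9 higher genes encode repressors or D-box activators and were Per1 (1.98 ± 0.43), Per2 (2.06 ± 0.37), Per3 (2.03 ± 0.36), Cry2 (1.10 ± 0.14), Ciart (2.88 ± 0.39), Bhlhe41 (1.11 ± 0.22), Dbp (2.24 ± 0.44), Tef (1.45 ± 0.21) and Hlf (1.18 ± 0.33). The genes for the activators Arntl and Npas2 and for the D-box repressor Nfil3 were lower, and the repressor genes Cry1 and Bhlhe40 did not pass the test. The time of day of collection is not given in the labels, so it cannot be told apart from the groups.

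Promoters of genes from this group are shown because they hold the letters that the clock factors are known to bind; they come from RefSeq on GRCm38.p6, 250 bases up to the start site, 5′ to 3′ on the strand of the gene. Capitals mark the E-box CACGTG, which reads the same on both strands, the D-box TTATGTAA or, for Nfil3, the letters TAGGTCA of the ROR element read on the other strand as TGACCTA.
Ciart, chr3:95882229-95882478, minus strand: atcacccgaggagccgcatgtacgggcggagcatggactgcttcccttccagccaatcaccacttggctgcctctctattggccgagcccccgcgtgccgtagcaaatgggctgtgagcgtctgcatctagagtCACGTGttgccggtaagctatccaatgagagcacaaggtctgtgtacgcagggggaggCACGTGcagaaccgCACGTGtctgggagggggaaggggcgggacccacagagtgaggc
Per1, chr11:69098699-69098948, plus strand: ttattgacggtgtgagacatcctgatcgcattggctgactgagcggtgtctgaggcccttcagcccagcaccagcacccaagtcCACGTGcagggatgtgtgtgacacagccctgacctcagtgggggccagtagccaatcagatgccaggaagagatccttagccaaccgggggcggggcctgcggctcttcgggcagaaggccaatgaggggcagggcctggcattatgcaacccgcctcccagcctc
Bhlhe41, chr6:145865421-145865670, minus strand: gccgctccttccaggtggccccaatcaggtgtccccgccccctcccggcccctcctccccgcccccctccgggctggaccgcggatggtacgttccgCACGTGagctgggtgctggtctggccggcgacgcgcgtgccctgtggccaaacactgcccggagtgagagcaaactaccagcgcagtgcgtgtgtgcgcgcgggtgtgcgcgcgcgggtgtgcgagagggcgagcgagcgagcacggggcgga
Per3, chr4:151044666-151044915, minus strand: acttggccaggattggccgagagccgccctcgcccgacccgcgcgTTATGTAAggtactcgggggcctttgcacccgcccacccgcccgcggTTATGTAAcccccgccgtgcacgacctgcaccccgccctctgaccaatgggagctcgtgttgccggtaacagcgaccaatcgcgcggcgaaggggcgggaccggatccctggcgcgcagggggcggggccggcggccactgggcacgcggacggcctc
Nfil3, chr13:52981040-52981289, minus strand: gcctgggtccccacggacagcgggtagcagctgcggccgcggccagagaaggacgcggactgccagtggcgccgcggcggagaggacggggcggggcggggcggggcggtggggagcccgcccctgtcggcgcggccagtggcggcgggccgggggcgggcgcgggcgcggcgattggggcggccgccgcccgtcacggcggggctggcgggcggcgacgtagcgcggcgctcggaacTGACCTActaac

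Searched on both strands, the E-box was in 6.02% of 32851 mouse promoters of this length, the D-box in 0.819% and TAGGTCA in 2.23%. Ciart held 3 E-boxes, at 116, 58 and 44 bases upstream of the start. Bhlhe41 and Cry1 held 1 each, Tef 1 in each of its 2 promoters, and Per1 1 in the promoter shown and none in its other promoter. Per3 held 2 D-boxes, at 205 and 158 bases. The windows of Cry2, Dbp, Hlf, Arntl, Npas2, Clock, Nr1d1, Nr1d2 and Rora held none of these 3 motifs, which says only that the letters are not in those 250 bases. Per2 was not matched to the promoter table.

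Ciart, a repressor of the ARNTL complex, was 0.986, 0.401, 0.510, 1.74 and 2.25 CPM in WT and 10.6, 16.1, 15.7 and 9.10 CPM in treated mice (adjusted p = 0.000324). All treated mice lay above all WT mice, and the OB mice, at 1.80 to 9.96 CPM, overlapped both groups. Of its 50-base stretches 11.9% also occur in Gm9176. Arntl was 22.8, 14.8, 17.8, 2.10 and 3.77 CPM in WT and 0.628, 0.739, 0.486 and 0.472 CPM in treated mice (-2.90 ± 0.54, adjusted p = 0.00335). The WT values fell into the batches, and the WT mice 58 and 59 were nearer to the obese mice. Npas2, with 4 and 7 reads in those mice, 37 to 72 reads in the other WT mice and 2 reads over all treated mice, had a treated to WT ratio of 0.0125 (95% exact interval 0.0015 to 0.0457, counting error only), or 0.0686 (0.00739 to 0.314) within batch RQ15502. Per2 measured 8.19, 3.81, 1.99, 14.7 and 24.8 CPM in WT and 66.9, 69.3, 74.5 and 52.9 CPM in treated mice. Within batch RQ15502 alone edgeR called 1 of the 19 clock genes, Per1, which was 5.58 and 9.86 CPM in its WT mice and 35.3 to 43.0 CPM in treated mice. Hlf (adjusted p = 0.0468) lost its call in 12 of the 16 fits that left out a mouse and Per1 without WT mouse 58 (adjusted p = 0.053). Clock and Bhlhe40 were called in OB only, and Cry1, Nr1d1, Nr1d2 and Rora in neither comparison. Counts on Dbp and Bhlhe41 may include reads of the antisense genes Sphk2 and Gm43909, since no strand setting is stated.

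**Figure D4:**
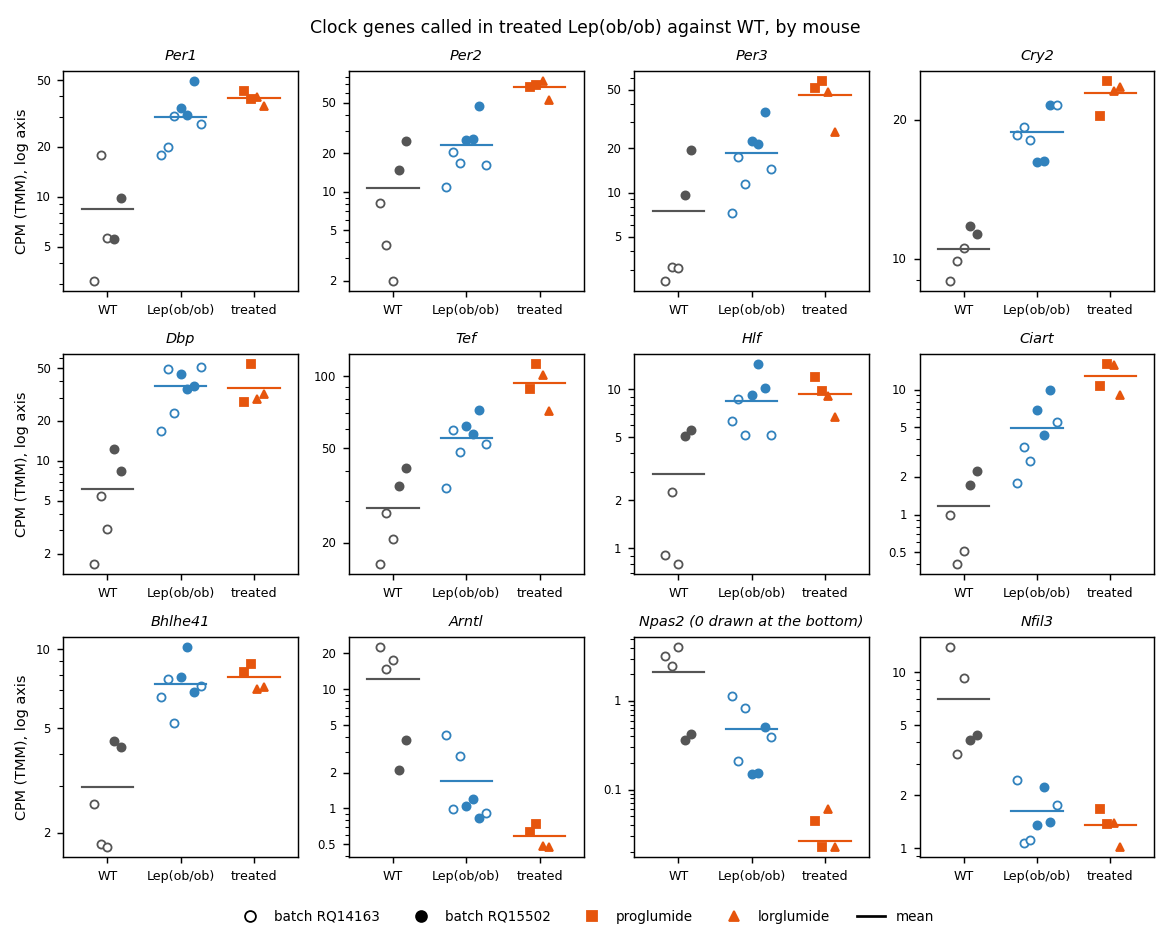
CPM on a log axis in each mouse, 1 panel a gene, for WT, untreated Lep(ob/ob) and treated mice; open points are batch RQ14163, filled points batch RQ15502, squares proglumide, triangles lorglumide and lines the group means. The treated mice lie above all WT mice for the 9 genes from Per1 to Bhlhe41 and below them for Arntl, Npas2 and Nfil3, and the filled WT points lie toward the obese mice for Arntl and Hlf.

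Of 33 digestive enzymes and granule proteins, 4 were lower in treated mice, beside 1.35% of all genes, and 1, Prss1, was higher. An unadjusted p under 0.05 was found for 14 of the 33, beside 16.7% of all genes, and the median was -0.76 (-0.27 in OB). Gp2, the main membrane protein of the zymogen granule, was 7984, 7635, 8277, 4309 and 2013 CPM in WT and 828, 1238, 1282 and 2480 CPM in treated mice (-1.33 ± 0.38, adjusted p = 0.0485). Pla2g1b, a phospholipase, was 2483, 2157, 2377, 1102 and 561 CPM in WT and 143, 264, 221.8 and 502 CPM in treated mice (-1.88 ± 0.40, adjusted p = 0.00883). For Gp2, WT mouse 59 lay below treated mouse 76, so the groups overlapped, and for Pla2g1b it lay nearest to the treated mice without overlap. Cela3a and Try4 fell by 2.51 ± 0.53 and 1.35 ± 0.37, but 34.2% and 65.6% of their 50-base stretches occur in close copies, Cela3b and Try5 among them, which did not pass the test. The number of lower enzymes was 14 without batch as a covariate, 8 with DESeq2 and batch, 7 without treated mouse 76 and 2 when any of 13 other mice was left out in turn; Gp2 and Try4 lost their calls in those 13 fits. Acinar marker sums were lower in treated than in most WT mice, and their part in these values was not tested. The amylases Amy1, Amy2a5 and Amy2b, with log2 differences of -0.77, -0.57 and -0.22, did not pass the test.

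The 7 genes past WT were 1 that was higher and 6 that were lower. Cacnb2 (chr2:14603088-14987908), a β subunit of voltage-gated calcium channels, was 2.73, 4.01, 4.03, 2.56 and 3.59 CPM in WT and 4.89, 6.81, 7.54 and 6.07 CPM in treated mice (1.14 ± 0.22, adjusted p = 0.00443), with no overlap. In OB it lay at 2.30 to 4.34 CPM, within or close to the WT range, and it also differed between treated and OB mice (1.29, adjusted p = 0.0365). The call against WT held when each mouse was left out in turn, whereas that against OB was lost in 11 of these 16 fits. Antisense genes such as Gm10849 overlap its exons and share 5.9% of its 50-base stretches.

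Reg3d (chr6:78375874-78378865), a Reg family member, was 302, 329, 306, 312 and 302 CPM in WT and 72.8, 108, 111 and 152 CPM in treated mice. The WT mice were close together at 310 ± 11.1 CPM (SD, n = 5), every treated mouse lay below them, and OB mice spread from 215 to 814 CPM. The log2 difference was -1.37 ± 0.35 against WT (adjusted p = 0.0263) and -1.97 ± 0.34 against OB (adjusted p = 0.0439). The call against OB was lost in 14 of the 16 fits that left out a mouse. The call against WT was lost when WT mouse 58 or 59 or treated mouse 69, 72 or 74 was left out, with adjusted p up to 0.0901.

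Pvrl2, which encodes the adhesion molecule nectin-2, was 14.0, 14.6, 17.4, 13.0 and 10.1 CPM in WT, 9.71 to 17.9 CPM in OB and 6.10, 7.02, 6.93 and 5.59 CPM in treated mice (-0.79 ± 0.16, adjusted p = 0.00583). The treated mice lay below all other mice, and the call held when each mouse was left out in turn. Ifitm3, an interferon-induced membrane protein that restricts viruses, was 52.2, 51.6, 47.4, 42.7 and 36.3 CPM in WT and 24.8, 22.9, 14.0 and 27.6 CPM in treated mice (-1.01 ± 0.25, adjusted p = 0.02). The call was lost without WT mouse 58 or treated mouse 74, and 10.0% of its stretches occur in other genes. Hkdc1, a hexokinase domain protein, was 2.05, 3.21, 4.82, 3.29 and 4.5 CPM in WT and 1.17, 1.53, 1.28 and 0.674 CPM in treated mice (-1.50 ± 0.39, adjusted p = 0.0276). Its groups did not overlap, and the call was lost without WT mouse 58 or 59 or treated mouse 69, 74 or 76.

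The proprotein convertase Pcsk6 was 26.4, 25.3, 25.9, 16.8 and 11.9 CPM in WT and 10.8, 11, 8.69 and 10.4 CPM in treated mice (-0.74 ± 0.20, adjusted p = 0.0338). Cnp, a phosphodiesterase best known from myelin, was 25.6, 26.3, 22.9, 11.6 and 8.70 CPM in WT and 5.88, 5.70, 6.02 and 10.0 CPM in treated mice (-0.82 ± 0.23, adjusted p = 0.0486). In both genes WT mice 58 and 59 lay closest to the treated mice, and for Cnp treated mouse 76 lay above WT mouse 59. The calls were lost in 9 and 13 of the 16 fits that left out a mouse. For 6 of the 7 genes past WT the groups did not overlap, beside 11.5% of all genes, and these too were called with the same mice. In batch RQ15502 alone all 7 kept their direction, 5 had an unadjusted p under 0.05, beside 9.96% of all genes, and none passed the adjusted threshold in edgeR; DESeq2 with batch called all 7 between treated and OB mice, whereas edgeR called Cacnb2 and Reg3d. The number past WT was 2 without WT mouse 58 or treated mouse 74, 4 without OB mouse 461 or treated mouse 72, 12 without treated mouse 69, 16 without OB mouse 463 and 18 without OB mouse 464 or treated mouse 76; without batch as a covariate it was 90.

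**Figure D5:**
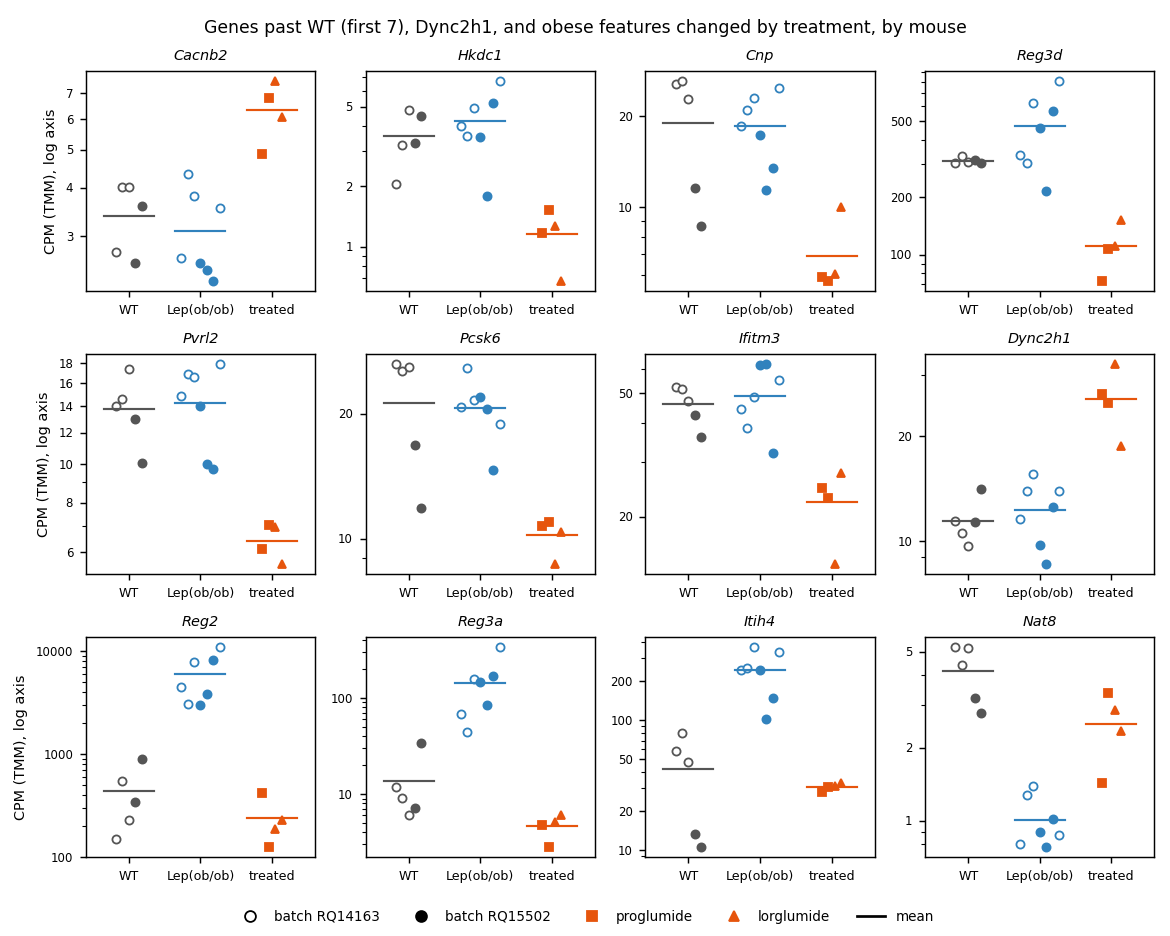
CPM on a log axis in each mouse, 1 panel a gene, for WT, untreated Lep(ob/ob) and treated mice; open points are batch RQ14163, filled points batch RQ15502, squares proglumide, triangles lorglumide and lines the group means. Of the 7 genes past WT, Cacnb2 is higher and Pvrl2, Reg3d, Ifitm3, Hkdc1 and Pcsk6 are lower in the 4 treated mice than in every other mouse, Cnp overlaps WT, and the lower row shows the obese features called between treated and untreated mice.

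The 8 genes that edgeR called between treated and OB mice comprised 4 that differed in OB but not in treated mice (Reg2, Reg3a, Itih4 and Nat8; DESeq2 with batch called 16 of the 641 such genes), 2 past WT (Cacnb2 and Reg3d) and 2 that were chosen after their values were seen, Dync2h1 and Fam120c. The Reg family members Reg2 (chr6:78395623-78408106) and Reg3d sit in one cluster, and the 250 bases before each start are shown because these genes ended at and below the WT level.
Reg2, chr6:78404905-78405154, plus strand: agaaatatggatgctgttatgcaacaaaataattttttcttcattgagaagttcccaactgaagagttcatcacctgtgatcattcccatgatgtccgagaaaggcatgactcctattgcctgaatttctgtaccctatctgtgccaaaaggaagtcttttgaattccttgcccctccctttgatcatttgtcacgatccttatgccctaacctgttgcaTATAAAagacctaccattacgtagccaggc
Reg3d, chr6:78378866-78379115, minus strand: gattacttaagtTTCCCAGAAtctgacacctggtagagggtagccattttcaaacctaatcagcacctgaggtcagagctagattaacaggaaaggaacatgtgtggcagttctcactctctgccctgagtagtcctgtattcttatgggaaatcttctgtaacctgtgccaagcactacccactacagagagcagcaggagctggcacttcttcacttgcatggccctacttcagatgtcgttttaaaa

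Capitals mark TATAAA in Reg2, 30 bases upstream, letters found on either strand in 12.4% of promoters, and TTCNNNGAA, the letters STAT factors bind, in Reg3d, 238 bases upstream and in 7.02% of promoters. The window of Reg3a held neither, Reg1 held TATAAA at the same distance as Reg2, Reg3b held both motifs, and Reg3g held TATAAA at 27 and 161 bases.

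Reg2 measured 150, 554, 229, 347 and 891 CPM in WT, 3016 to 11040 CPM in OB and 420, 125, 186 and 228 CPM in treated mice. The treated mice lay within or below the WT range, and the log2 difference from WT was -0.95 ± 0.56 (adjusted p = 0.446). Reg3a was 11.9, 9.23, 6.12, 7.13 and 34.2 CPM in WT and 4.80, 2.80, 5.17 and 6.00 CPM in treated mice, below every WT mouse, yet the difference did not pass the test (-1.72 ± 0.62, adjusted p = 0.132); it passed without OB mouse 472 (0.0288), with treated and WT mice alone and in DESeq2 without batch. Reg3b (-2.86 ± 0.92, adjusted p = 0.0856) did not pass either, but did without OB mouse 463 or 472, without mice 69 and 463 together, with treated and WT mice alone and in DESeq2 with batch. Reg3g (-0.22 ± 0.80) and Reg1 (-0.50 ± 0.38) did not pass, and Reg4 had no reads in WT or treated mice. Reg2 carries 11.3% of 50-base stretches found in other genes. Of the 6 tested Reg genes 1 was thus lower than WT, but 0 without WT mouse 58 or 59 or treated mouse 69, 72 or 74 and 3 without OB mouse 472.

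Itih4, a secreted acute-phase protein, was 58.5, 79.4, 48.1, 13.3 and 10.5 CPM in WT, 103 to 369 CPM in OB and 28.2, 30.5, 31.3 and 33.0 CPM in treated mice. The treated mice sat between the WT mice of the batches, and the fitted difference from WT was 0.72 ± 0.37 with batch (adjusted p = 0.352) and -0.45 without it. Nat8, an acetyltransferase, was 5.23, 4.41, 5.16, 3.20 and 2.80 CPM in WT, 0.778 to 1.40 CPM in OB and 1.44, 3.38, 2.86 and 2.36 CPM in treated mice; mouse 69 lay next to OB and the others near WT mice 58 and 59. Dync2h1, a motor subunit of cilia, was 9.70 to 14.2 CPM in WT and 26.5, 24.9, 32.3 and 18.7 CPM in treated mice (1.24 ± 0.21, adjusted p = 0.00157), above every untreated mouse, lean or obese. Fam120c was 9.31 to 17.7 CPM in WT and 13.8 to 16.7 CPM in treated mice and did not pass against WT (0.56 ± 0.17, adjusted p = 0.0611) but passed without WT mouse 5489 or OB mouse 417 or 463, without mice 69 and 463 together and in DESeq2 with batch. The calls of Itih4 and Nat8 between treated and OB mice were lost in 5 and 15 of the 16 fits that left out a mouse, those of Dync2h1 and Fam120c in 14 each, and those of Reg2 and Reg3a without treated mouse 72 or 74.

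Among the 156 genes called in treated mice only, Vtn (vitronectin, a plasma and matrix adhesion protein) was among the 10 largest falls of the naming rule. It was 118, 89.8, 97.6, 32.5 and 15.7 CPM in WT, 12.1 to 43.0 CPM in OB and 2.47, 6.55, 6.32 and 14.6 CPM in treated mice (-2.34 ± 0.56, adjusted p = 0.0169), and was not called without treated mouse 74. The duct keratin Krt19 fell by 1.15 ± 0.27 and the acinar factor Gata4 by 0.91 ± 0.25. Krt7, another duct keratin, was a remaining feature that rose by 1.23 ± 0.29. Gata4 lost its call in 9 of the 16 fits that left out a mouse, and Krt7 without treated mouse 74 or 76. Clu, clusterin, a secreted chaperone, fell by 1.2 ± 0.34 (adjusted p = 0.0492), and lost the call in 12 of 16 fits that left out a mouse. The 1 gene of this class also called between treated and OB mice was Dync2h1. For 119 of the 156 genes treated and WT mice did not overlap, beside 11.5% of all genes, but the 156 were called with these same mice; in batch RQ15502 alone all 155 that could be tested kept their direction and none was called. The class held 61 genes without treated mouse 74, 96 without WT mouse 58, 247 without WT mouse 59 and 259 without OB mouse 463.

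Of 18 fatty acid oxidation genes and PPAR targets, and of 19 metallothionein and antioxidant genes, 1 was higher and 1 lower in each list, and of 14 fatty acid synthesis genes 1 was higher, beside 5.57% of all genes called in either direction. Pdk4, a kinase that spares glucose in fasting, rose by 1.86 ± 0.49, Mlxipl, a glucose-sensing lipogenic factor, by 1.38 ± 0.33, and Gclc, which makes glutathione, by 1.36 ± 0.24. Gpx1, a glutathione peroxidase, and Ppara, a fatty acid oxidation factor, fell by 0.77 ± 0.18 and 0.65 ± 0.18. Sesn1, Ccne1 and Rps4l were the only called members of the FoxO, cell cycle and ribosomal protein lists, with 18, 25 and 77 genes tested, and Hnf4a was called with Gata4 among 9 acinar factors; Sesn1, Ccne1, Rps4l and Hnf4a were higher. The calls of Pdk4, Mlxipl, Ppara, Sesn1, Hnf4a and Rps4l were each lost without at least 2 of the mice in turn, while those of Gclc, Gpx1 and Ccne1 were kept.

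For 14 further lists, edgeR called 0 of 270 genes tested in treated mice against WT: macrophage, lymphocyte, MHC class II, endothelial, stellate and collagen, ER folding, amino acid response, tRNA synthetase, leptin receptor signalling, interferon-stimulated, immediate early, proteasome, nuclear OXPHOS and red blood cell genes, the last with 1 member tested. Of these, 37 had an unadjusted p under 0.05, beside 16.7% of all genes, 2 higher and 35 lower, and DESeq2 with batch called 6, beside 7.79% of all genes, namely Wars, Creld2, Sdhb, Kdr, Bst2 and Ndufb7. The medians of the macrophage and MHC class II lists were -0.86 and -1.25 in treated mice and 0.46 and -0.21 in OB. Summed macrophage markers were 53.5 to 80.9 CPM in WT and 97.1, 41.9, 38.6 and 45.7 CPM in treated mice, with mouse 69 above WT and the other treated mice below it.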

How the data were processed

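RNA was extracted from whole pancreas of 16 male mice and sequenced. By the submitters' processing notes, Trim Galore 0.6.7, cutadapt 3.5 and STAR 2.7.9 were used with build mm10, and the authors deposited a table of raw counts per gene symbol, used here, and a DESeq2-scaled copy, not used here. The counting tool, its strand setting and its annotation are not given in the sources used here. Counts ranged from 9.87 to 34.5 M per mouse.

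Genes were filtered with filterByExpr (minimum count 10), scaled by TMM and tested with edgeR 4.0.16 (quasi-likelihood, R 4.3.3) in 1 model over all mice with group and batch; Benjamini-Hochberg adjustment was over all 13660 genes tested, and the threshold was 0.05. This step was tested on simulated data. DESeq2 1.42.0 and the settings in the closing section were alternatives. A paired block was not fitted. CPM values are TMM-scaled; p-values measure the spread between mice. Named genes were the Reg family, the 10 largest rises and 10 largest falls (groups not overlapping, average log2 CPM not under 1), the 5 largest remaining features each way, all genes past WT, obese features called against OB, up to 4 called members of each of 34 lists, and preset hormones and receptors; list members named beyond these were chosen after their values were seen. The members and lists were chosen with earlier results of these data known. Weights were compared by exact permutation. Copies were searched as 50-base stretches of the GENCODE annotation of GRCm38, and promoters came from RefSeq. Some list members are not reported here by name.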

Additional observations from a re-analysis of the deposited data

Results flagged for a closer look

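Samples far from the rest of their group were sought in 78 named genes and 233 groups by Dixon's ratio, the gap of the highest or lowest mouse to its neighbour over the range of the group in log2 CPM. It passed the 95% critical value in 9 groups, where chance gives about 1 in 20, or 11.65. In treated mice, Cnp was highest in mouse 76 (ratio 0.906), at 10.0 CPM against 5.70 to 6.02 CPM in the others, and Klk1b11 was highest in mouse 72 (0.862), at 2.48 CPM against 2.11 to 2.16 CPM. WT mouse 59 had 4 of the 9: Ins2 was lowest (0.749), Rps4l lowest (0.747), Syt5 lowest (0.753), with 0 reads, and Reg3g highest (0.715), at 48.6 CPM against 4.75 to 9.25 CPM. In OB mice, Ccne1 was lowest in mouse 461 (0.655), and Dapl1 and Reg1 were lowest in mouse 463 (0.642 and 0.60), the latter at 6551 CPM against 13130 to 20880 CPM. The Reg3g estimate of treated mice against WT, -0.22, was 1.10 without WT mouse 59.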

How the results depend on the processing

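No paired analysis was possible because each mouse carries a number of its own. Genes called against WT are given here as % of the genes tested, 5.57% in the report. Leaving out each of the 16 mice in turn gave 3.70% to 7.17% called, 449 to 693 remaining features, 2 to 18 genes past WT and 61 to 259 called in treated mice only. Without batch as a covariate 10.5% were called, 90 past WT and 828 in treated mice only. DESeq2 with batch gave 27 past WT and 267 in treated mice only, and DESeq2 without batch 16.98% called, 289 past WT and 1281 in treated mice only. At least 10 counts in every mouse left 3.91% called and 326 remaining. Treated and WT mice alone gave 2.18% called. Batch RQ15502 alone gave 0.0926% called, 6 remaining, 0 past WT and 7 in treated mice only. Proglumide mice alone gave 1.65% called and 207, 1 and 31, and lorglumide mice alone 3 past WT. A fold change cut of 1 on the log2 scale left 4 past WT, and an adjusted p under 0.01 left 2.92% called and 297, 2 and 100. Leaving out mice 69 and 463 together, chosen after seeing the data, gave 12 past WT. The cause of these shifts was not tested, except that smaller fits had fewer mice. Scaling by RLE, leaving the 50 most counted genes out of scaling and no low-count filter kept the 4 counts within 1.5 times.

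Of the values of named genes, 2460 over 86 results, 2012 kept direction and call, 415 kept direction only and 25 newly passed; in batch RQ15502 alone, 68 of 85 no longer passed. The 8 that reversed follow. Itih4 against WT was -0.45 without batch and -0.46 by DESeq2 without batch. Reg3g was 0.21 and 0.20 in those fits, 0.15 with lorglumide mice alone, 1.10 without WT mouse 59 and 0.10 without treated mouse 74, and -0.98 to 1.10 over all fits that left out a mouse. Sst was -0.11 with proglumide mice alone. Treated libraries held 9.87 to 12.5 M counts, and those of WT mice 58 and 59, of the same batch, 10.8 and 11.2 M. Genes with few reads, Cck, Npas2 and Cckbr among them, carry wide counting error.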

Other observations

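The 13 genes called in batch RQ15502 alone, where treated mice are compared with WT mice 58 and 59 only, were all remaining features: Per1, 6330403K07Rik, Tdh, Pde10a, Fkbp5, Gal, Cyp2c70, Pex5l, Cela3a, Cds1, Adrbk2, Klk1b11 and Zbtb16. Fkbp5 and Zbtb16, both known as genes that glucocorticoids induce, were looked up after these calls. Fkbp5 (chr17:28399094-28517527) was 9.18, 8.62, 7.71, 13.6 and 9.00 CPM in WT mice 5489, 5492, 5494, 58 and 59, 19.8 to 51.9 CPM in OB and 58.2, 33.5, 53.5 and 45.7 CPM in treated mice 69, 72, 74 and 76 (log2 difference from WT 1.99 ± 0.23, edgeR adjusted p = 0.000116). Zbtb16 (chr9:48654297-48836222) was 1.21, 5.35, 3.80, 1.92 and 2.56 CPM in WT, 9.70 to 33.7 CPM in OB and 46.7, 55.6, 40.0 and 27.4 CPM in treated mice (3.44 ± 0.45, edgeR adjusted p = 0.000264). In both genes every treated mouse lay above every WT mouse, and neither passed the test between treated and OB mice (edgeR adjusted p = 0.678 and 0.276).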
